A study of Mus musculus with 12 samples.

Results

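The transcripts described here are the 136 whose level was low in Zar1/2-null oocytes at both the growing and the germinal vesicle (GV) stage. They were chosen from group means of 2 libraries, each mean set to at least 1 FPKM (fragments divided by transcript length and by library depth): the Zar1/2-null mean had to be less than 1/3 of the wild-type (WT) mean at both stages. Of 23230 genes in the expression table, 156 met both folds and 20 were left out by name, which left 136 members. Because growing and GV values chose the members, their values at those stages are a description without a test. The ovulated oocytes, labelled MII, were not used in the choice and give the comparison that was tested.

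The series held 12 libraries in 6 groups of 2. Oocytes of WT females and of females null for both Zar1 and Zar2 were collected on a mixed C57BL6/ICR background, and each library was made by Smart-seq2 from a pool of 10 oocytes with ERCC spike-in RNA in the lysis buffer. Growing oocytes came from females aged 13.5 days by the labels (the study's methods give a younger age), GV oocytes from females aged 21 days at 44 h after PMSG, and MII oocytes were taken 16 h after hCG. The null alleles are small CRISPR/Cas9 deletions close to the start codons and are present in every cell of the animal, so the surrounding follicle also lacked both genes. By quantitative RT-PCR the study found both mRNAs high in oocytes relative to somatic tissues. The "MII" name of the null libraries rests on the collection time, and whether those oocytes had reached metaphase II cannot be told from the expression table. By microscopy the study found ovulated null oocytes arrested in metaphase I or still in telophase I. The MII comparison may therefore set different meiotic stages side by side, and the part of this in the MII differences was not tested. The study also reported that poly(A) tails of several assayed mRNAs failed to lengthen in maturing null oocytes. The part of tail length in the MII values was not tested. Nothing in the labels says which libraries came from separate females, so p-values measure only the spread between these libraries.

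ZAR1 and ZAR2 (the product of the gene listed as Zar1l) are zinc-finger proteins of the oocyte cytoplasm that bind messenger RNA. Growing oocytes transcribe and store maternal mRNA, transcription then falls silent in the fully grown GV oocyte, and many stored messages are translated or degraded during maturation to MII. In frog oocytes the zinc finger of ZAR proteins binds a short 3′ UTR element called the translational control sequence (TCS).

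Sequences of members illustrate what they did and did not share. Windows are printed for 3 promoters, each from 250 bases before to 50 bases after the annotated start in mm9, with each CG dinucleotide in capitals. Mbd3l2 and Dydc2 are shown because they had almost no CG and high WT levels, and Znrf2 because it carried many.
Mbd3l2 promoter, chr9:18247650-18247949, plus strand, with 0 CG: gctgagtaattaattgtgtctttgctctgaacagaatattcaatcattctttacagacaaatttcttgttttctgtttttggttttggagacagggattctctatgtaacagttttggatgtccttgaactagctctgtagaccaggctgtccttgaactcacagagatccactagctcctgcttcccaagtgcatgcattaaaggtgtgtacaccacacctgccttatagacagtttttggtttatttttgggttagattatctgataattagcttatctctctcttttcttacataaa
Dydc2 promoter, chr14:41882314-41882613, minus strand, with 1 CG: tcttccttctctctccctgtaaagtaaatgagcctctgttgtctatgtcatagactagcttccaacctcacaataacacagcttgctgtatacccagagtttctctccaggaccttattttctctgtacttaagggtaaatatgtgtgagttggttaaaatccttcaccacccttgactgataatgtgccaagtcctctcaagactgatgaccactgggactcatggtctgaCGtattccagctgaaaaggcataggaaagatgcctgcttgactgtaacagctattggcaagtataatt
Znrf2 promoter, chr6:54766660-54766959, plus strand, with 53 CG: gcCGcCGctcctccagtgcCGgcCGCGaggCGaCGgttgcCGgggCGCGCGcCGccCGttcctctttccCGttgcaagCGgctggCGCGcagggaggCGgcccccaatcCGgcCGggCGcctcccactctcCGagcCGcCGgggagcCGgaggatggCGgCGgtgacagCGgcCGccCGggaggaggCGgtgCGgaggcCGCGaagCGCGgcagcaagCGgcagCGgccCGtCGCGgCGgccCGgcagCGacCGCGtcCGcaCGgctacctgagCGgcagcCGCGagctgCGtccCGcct

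Windows of 27 bases around the first TCS-type heptamer of the annotated 3′ UTR are given, 5′ to 3′ in the sense of the transcript, with the heptamer in capitals. Mtus2, Klhl9, Lrrfip1 and Znrf2 are shown because they were low at all 3 stages, and Glce and Agtpbp1 because their 2 genotypes did not differ at MII by the test.
Mtus2, chr5:149125918-149125944, plus strand: ttagtgattcATTATCTtgaaaacacc
Klhl9, chr4:88365173-88365199, minus strand: aagaactgttTTTGTCTttgttgtttt
Lrrfip1, chr1:93013625-93013651, plus strand: aatttattatTTTATCTgcctgaagga
Znrf2, chr6:54839311-54839337, plus strand: gcaggtgtctTTTGTCTttctgtaatt
Glce, chr9:61906273-61906299, minus strand: aacatgcacaTTTGTCTcagcaataaa
Agtpbp1, chr13:59551199-59551225, minus strand: tgcatgaattTTTATCTcctgtggcac

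Values were deposited as FPKM scaled to the ERCC spike-in, so a level is relative to the spike-in and not to the rest of the library. The study lists the total reads of each library, but read counts per gene were not used here and the counting error behind a value is unknown. Summed FPKM lay between 480800 and 638056 in WT growing and GV libraries and between 401824 and 567063 in their null counterparts, but between 121121 and 128281 in WT MII and between 176380 and 209875 in null MII libraries. Between 5688 and 10454 genes had at least 1 FPKM. Zar1l, the targeted Zar2 gene, was listed at 639 and 644 FPKM in WT growing libraries against 17.5 and 13.2 in null ones. Zar1 RNA was still listed at 407 and 460 FPKM in null growing libraries against 603 and 725 in WT, and since the deletion takes out few bases this level checks little. Oocyte markers such as Zp3 and Gdf9 were at high levels in all libraries and summed to between 4990 and 27085 FPKM over 14 genes, whereas 16 granulosa and cumulus markers summed to between 5.22 and 33.5 FPKM and 15 macrophage and other immune markers to between 1.34 and 3.86 FPKM. The granulosa and cumulus sum was 33.5 and 29.99 FPKM in WT growing and 23.0 and 14.6 in null growing libraries, where 3 of 5 of these markers tested were lower and 1 higher, beside 24.4% and 10.6% of all genes, and its part in the members' values was not tested. Krt8, a keratin of simple epithelia, was at 72.8 and 88.0 FPKM in null growing libraries against 3.77 and 3.64 in WT, and its part in any result below was not tested.

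Members were transcripts of low to middle abundance. Their WT means had a median of 16.1 FPKM at the growing stage (range 3.49 to 201) and 11.0 FPKM at GV (3.15 to 167), and their null means had a median of 2.19 FPKM at both stages. In null oocytes 33 members had a mean at or under 1 FPKM at the growing stage and 24 at GV, where the floor of 1 FPKM makes the fold a low estimate. The members made up 0.574% and 0.598% of the summed FPKM in WT growing libraries and 0.142% and 0.124% in null ones. At MII, which the choice did not use, they made up 0.648% and 0.627% in WT and 0.183% and 0.182% in null libraries. That share is also lowered by the higher sum over all genes in null MII libraries. The members themselves summed to 832 and 760 FPKM in WT and 383 and 320 in null MII libraries. Their median fold at MII was 1.40, with each mean set to at least 1 FPKM. Of the 11502 genes kept, which reached 1 FPKM in some library, 3.54% were more than 3-fold lower in null oocytes at the growing stage and 4.2% at GV. The median difference of all these genes was -0.16 at the growing stage and -0.38 at GV on the log2(FPKM + 1) scale.

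**Figure D1:**
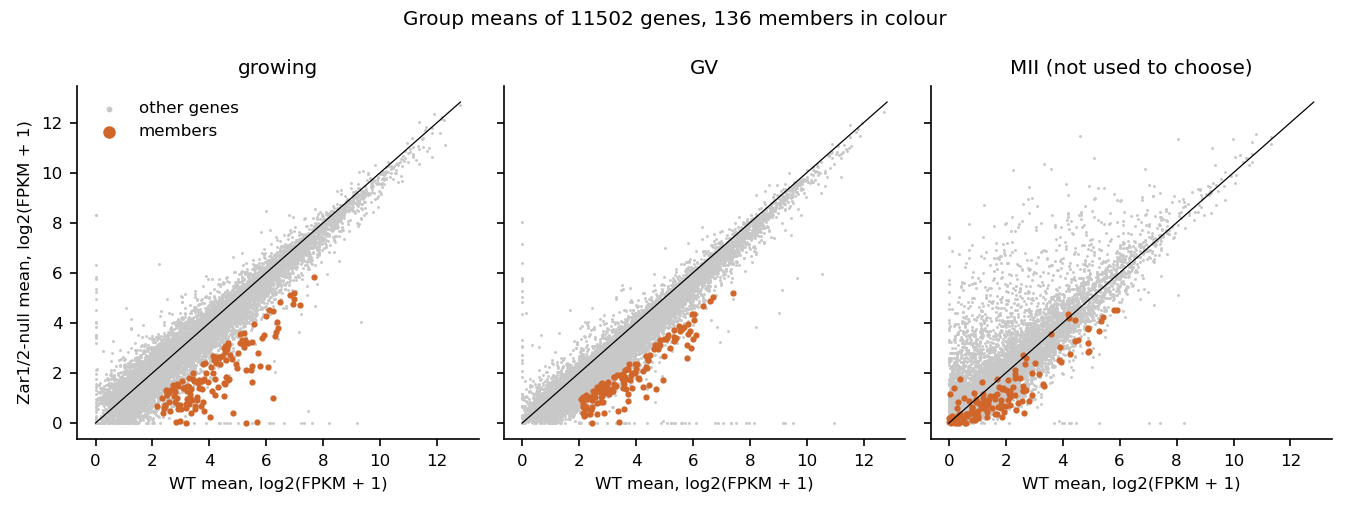
Mean level of each of 11502 genes in WT (x axis) and Zar1/2-null (y axis) oocytes at the growing, GV and MII stages, in log2(FPKM + 1), with the line of equal level; the 136 members are coloured. Members lie below the line at growing and GV, where they were chosen to. At MII the mean log2 difference, which the panel does not plot, was negative in 116 of 136 members, beside 41.5% of all genes.

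The fold was usually larger in growing oocytes. It ran from 3.01 to 73.7 with a median of 5.11 at the growing stage, and from 3.0 to 18.5 with a median of 4.18 at GV, and 93 members had the larger fold at the growing stage against 43 at GV. At least 10-fold lower means were seen in 26 members at the growing stage and in 8 at GV. H2-Aa, which encodes the alpha chain of an MHC class II molecule, had the largest fold at the growing stage with 53.3 and 94.1 FPKM in WT and 1.05 and 0.907 in null libraries. Stk32a, a serine/threonine kinase of little known function, followed with 48.2 and 51.7 FPKM in WT and 0.0426 and 0.0315 in null. Defb48, a beta-defensin, was at 34.7 and 41.2 FPKM in WT while both null growing libraries listed it at 0. The predicted genes Gm8817 and Gm17830 and the complement gene C1qb completed the 6 largest, at 27.4, 20.8 and 19.5-fold.

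At GV the order changed. Ly6e, a GPI-anchored surface protein, had the largest fold, with 19.4 and 19.6 FPKM in WT and 0.922 and 1.18 in null libraries. Batf3, a leucine-zipper transcription factor known from dendritic cells, was at 20.7 and 29.2 FPKM in WT and 1.73 and 1.36 in null. Mei4, needed for meiotic double-strand break formation, was at 16.6 and 7.70 FPKM in WT and 0.698 and 0.964 in null at GV, and at 11.2 and 12.9 in WT and 0.583 and 0.608 in null at the growing stage. WT libraries differed from each other by more than the null level in several such genes, since WT Mei4 at GV ranged from 7.70 to 16.6 FPKM. H2-Aa, Mtus2 and the clone-named E330014E10Rik were the others among the 6 largest GV folds, at 13.0, 11.2 and 10.9-fold.

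Levels in null oocytes did not all move the same way from growing to GV. The null GV mean was above the null growing mean in 61 of 136 members, and the WT GV mean above the WT growing mean in 32. In 41 members both null GV libraries were above both null growing libraries. Of the 7010 other genes that exceeded 3 FPKM in WT at both stages, the null GV mean was above the null growing mean in 1048. Since a low null growing value helped to choose a member, this contrast is a description. Stk32a had the highest ratio, with 0.0426 and 0.0315 FPKM in null growing and 8.76 and 9.95 in null GV libraries, with no overlap, and Gm17830 was at 2.42 and 1.79 and then 24.0 and 14.9 FPKM. Gm12238 was next in that order, but its values were erratic: it was listed at 0 and 16.1 FPKM in the WT growing libraries, at 0 in both null growing libraries, and at 10.1 and 0 FPKM in null GV, and it was the only member whose WT and null libraries overlapped at the growing stage. At the other end, Agpat9, an acyltransferase of glycerolipid synthesis, was at 7.37 and 4.59 FPKM in null growing and 0.503 and 1.07 in null GV libraries, and its WT level fell too, from 26.2 and 35.6 to 2.48 and 9.29 FPKM. Rpusd4 and Casq2 had the next lowest null GV to growing ratios.

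The threshold cut through a continuous range. The last members inside it were Inadl, with a larger null to WT ratio of 0.3333, Tnfsf11 at 0.3329 and Acadm at 0.3325. The first genes outside it were Ssr3 at 0.3336, Htra1 at 0.3346 and Spert at 0.3355. At MII these genes went in both directions on each side of the limit. Inside it, the null and WT means were 1.39 and 5.07 FPKM for Inadl, 1.30 and 0.849 for Tnfsf11 and 4.42 and 14.2 for Acadm. Outside it, they were 5.82 and 17.8 FPKM for Ssr3, 1.80 and 0.286 for Htra1 and 0.0245 and 0.197 for Spert.

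At MII, the stage that the choice did not use, 65 of the 136 members (47.8%) were lower in null oocytes by limma with Benjamini-Hochberg adjustment at an adjusted p below 0.05, against 10.3% of all 11502 genes tested. Only 3 members were higher, against 21.5% of all genes, and 68 did not pass the test in either direction. All 65 had both null libraries below both WT libraries. Over the members, 103 had both null libraries below both WT libraries, against 27.8% of all genes, and 12 had both above, against 43.5%. The median difference of the members at MII was -0.53 on the log2(FPKM + 1) scale, and that of all genes was 0.060. A fall of more than 3-fold was kept by 21 members (15.4%), against 1.32% of all genes. This number depended on the scaling and the floor: it was 47 without the ERCC scaling, 40 under median scaling and 44 with a floor of 0.1 FPKM, beside 3.85%, 3.01% and 3.68% of all genes.

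Many members were near the lower limit of measurement at MII. The WT mean at MII had a median of 2.02 FPKM and the null mean one of 0.858, and 40 members were at or under 1 FPKM in both genotypes, of which 4 were called lower. Among the 5966 genes whose mean over all 12 libraries was at least 5 FPKM, 42 of 77 members were lower and 2 higher, beside 15.4% lower and 33.6% higher over those genes. Without the ERCC scaling 93 members were lower at MII, beside 23.4% of all genes, and 24.6% of all genes were then higher. Median scaling also gave 93, beside 23.6% lower and 25.0% higher over all genes, and a pseudocount of 0.1 FPKM gave 80, beside 15.2% and 29.2%.

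**Figure D2:**
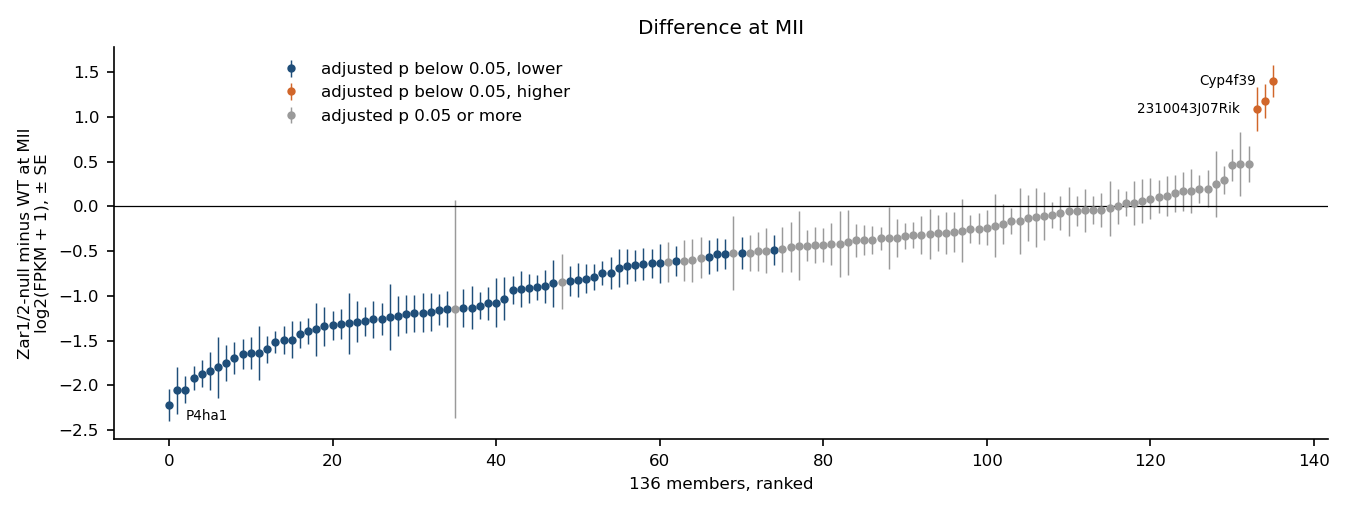
Difference between Zar1/2-null and WT MII oocytes for each of 136 members, ranked (x axis), in log2(FPKM + 1) with the standard error from limma (y axis); colour marks members past an adjusted p of 0.05. The points run from -2.22 for P4ha1 to 1.40 for Cyp4f39, with 65 members called lower and 3 called higher.

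The members most reduced at MII had varied roles. P4ha1, a catalytic subunit of the prolyl hydroxylase of collagen, was at 4.17 and 6.25 FPKM in the WT MII libraries and 0.265 and 0.365 in the null ones. The genotypes were well apart, and the difference of -2.22 ± 0.18 (SE) on the log2 scale had an adjusted p of 2.27e-06. Klhl9, an adaptor of a cullin ubiquitin ligase that acts in mitosis, was at 34.1 and 23.7 FPKM in WT and 5.97 and 6.20 in null, a difference of -2.06 ± 0.26 (SE) (adjusted p = 8.6e-05). Atp6v1b2, the B subunit of the proton-pumping vacuolar ATPase, was at 27.7 and 31.0 FPKM in WT and 6.49 and 6.19 in null, a difference of -2.05 ± 0.15 (SE) (adjusted p = 8.43e-07). Mtus2, a microtubule-associated protein, was at 6.45 and 5.58 FPKM in WT and 0.853 and 0.863 in null, a difference of -1.91 ± 0.13 (SE) (adjusted p = 7.32e-07). In each of these 4 the null values lay close together and far under the lower WT value.

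The other members among the 8 lowest included genes of unknown role. Fam84b and Prl8a2, the latter of the prolactin family, fell by 1.87 and 1.75 on the log2 scale. The clone-named 4930524B15Rik fell by 1.84. Rpusd4, a pseudouridine synthase of mitochondrial RNA, was at 6.75 and 6.39 FPKM in WT and 1.13 and 1.23 in null MII libraries, a difference of -1.80 ± 0.34 (SE) with an adjusted p of 0.00182. Its WT growing libraries differed from each other, at 13.0 and 31.7 FPKM.

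Members with the highest WT levels at MII were lower in null oocytes. Mbd3l2, a relative of the chromatin protein MBD3, had the highest WT level, at 65.0 and 52.9 FPKM against 22.0 and 22.1 in null (difference -1.37 ± 0.30 (SE), adjusted p = 0.00406). Znrf2, a membrane-linked ubiquitin ligase, was at 60.7 and 48.7 FPKM in WT and 21.9 and 21.6 in null. Tmem171, a transmembrane protein, was at 46.1 and 37.7 FPKM in WT and 17.1 and 18.4 in null. Nxt1, the partner of the main mRNA export receptor, was at 43.0 and 35.6 FPKM in WT and 18.3 and 13.6 in null, and Lrrfip1, a nucleic acid-binding regulator, at 36.5 and 38.0 and 12.2 and 11.2. The 6 members with the highest WT level, Atp6v1b2 included, were called lower, but the WT level is one side of this comparison and favours members that are lower in null. Pxt1, at 18.8 and 22.3 FPKM in WT and 22.5 and 10.2 in null, was not called.

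**Figure D3:**
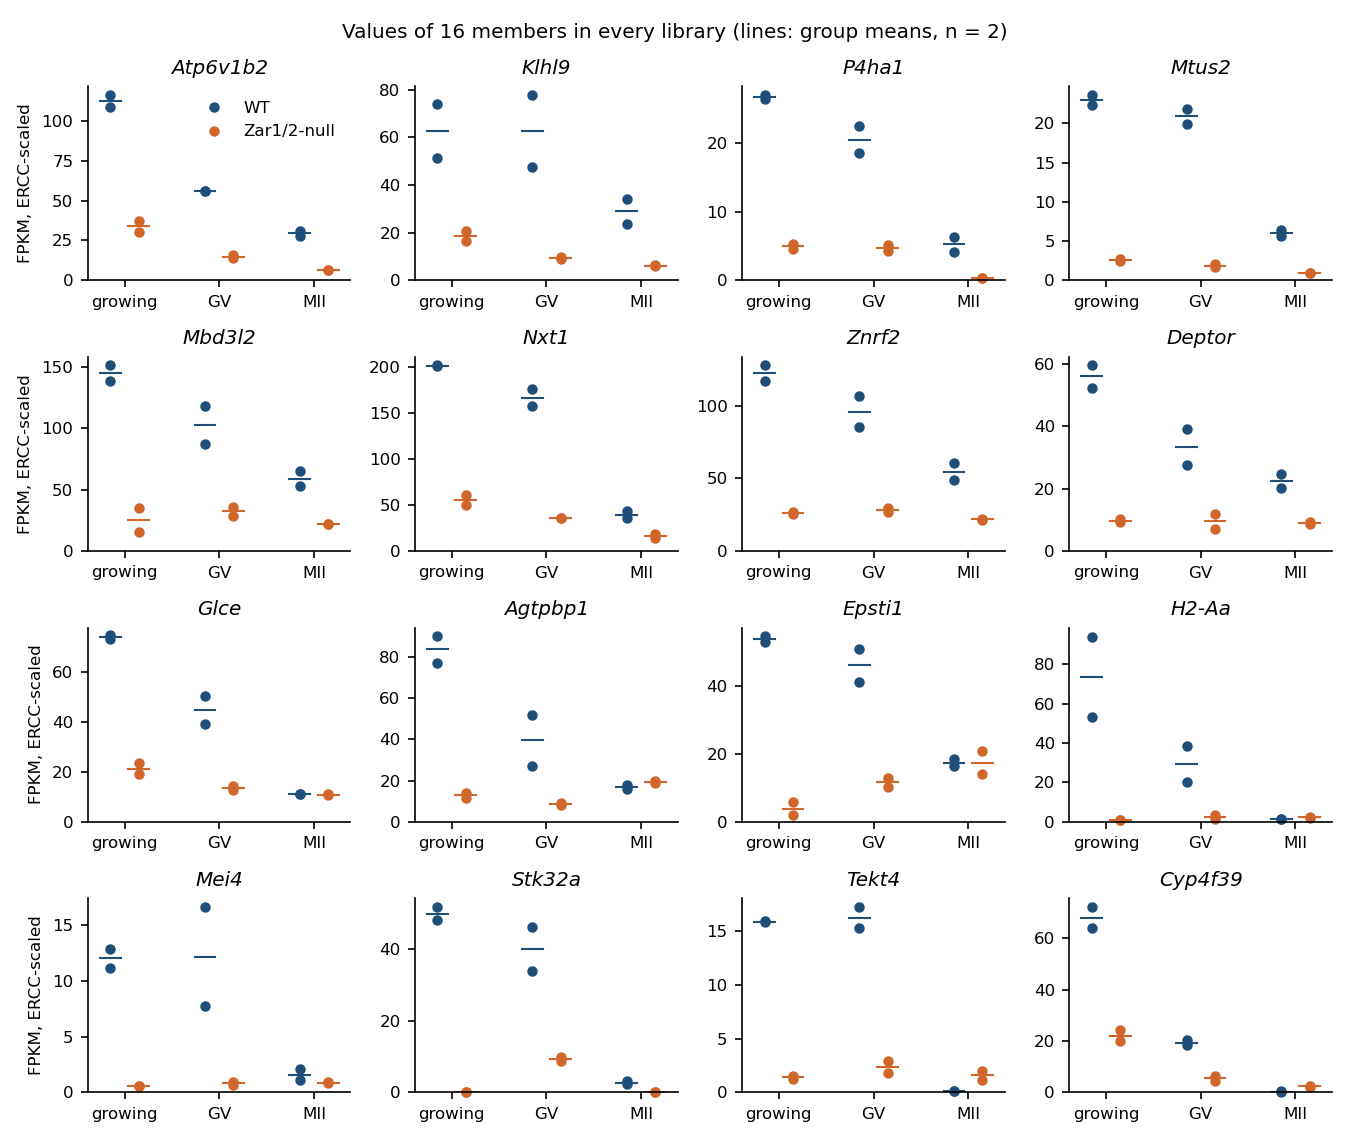
FPKM (y axis, from 0 in each panel) of 16 members in every library at the growing, GV and MII stages, with WT and Zar1/2-null in separate colours, points for libraries and lines for means of 2. In Atp6v1b2, Klhl9, P4ha1 and Mtus2 the genotypes stay apart at MII, in Epsti1 they overlap and in Glce and Agtpbp1 they lie close, and in Tekt4 and Cyp4f39 the null points lie above the WT points.

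The 3 members higher in null MII oocytes were listed at 0.372 FPKM or less in both WT libraries of that stage. Cyp4f39, a cytochrome P450 that hydroxylates long-chain fatty acids, was at 0.372 and 0.222 FPKM in WT and 2.61 and 2.23 in null MII libraries (difference 1.40 ± 0.18 (SE), adjusted p = 0.000117). Its WT level had been 63.9 and 72.0 FPKM at the growing stage. Tekt4, a protein of sperm flagella and cilia, was at 0.115 and 0.157 FPKM in WT and 2.03 and 1.18 in null (difference 1.18 ± 0.19 (SE), adjusted p = 0.000549). The clone-named 2310043J07Rik was at 0.0783 and 0 FPKM in WT and 1.61 and 0.878 in null (difference 1.09 ± 0.25 (SE), adjusted p = 0.00541), a call lost when null MII replicate 1 was left out. In all 3 the null MII level stayed below 3 FPKM, so the differences were between small values.

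Other members had close levels in the 2 genotypes at MII while still above 10 FPKM. Epsti1, an interferon-responsive gene, was at 18.5 and 16.4 FPKM in WT and 20.8 and 14.1 in null, after 51.0 and 41.3 and 10.3 and 13.0 at GV. Glce, the epimerase of heparan sulfate, was at 11.1 and 11.1 FPKM in WT and 11.0 and 10.5 in null, and Agtpbp1, which trims glutamates from tubulin tails, at 16.0 and 18.0 and 20.0 and 18.6. Their differences were -0.02 ± 0.30 (SE), -0.04 ± 0.16 (SE) and 0.17 ± 0.25 (SE), with adjusted p of 0.985, 0.903 and 0.691. A p of that size does not show that the genotypes were equal, and the sign for Agtpbp1 turned without the ERCC scaling. From GV to MII the WT level of members fell by a median of 4.23-fold, and by 4.22-fold over the 7010 other genes. The null level of members fell by a median of 1.44-fold, and by 2.40-fold over the others, but low null GV values chose the members and each mean was set to at least 1 FPKM, with 78 members at or under it in null MII oocytes, so a small fall was built in. In null oocytes the MII mean was above the GV mean in 16 members, and in WT in 0. Agtpbp1 and Epsti1 were among the 16, with null means of 8.73 and then 19.3 FPKM and of 11.6 and then 17.4 FPKM on the ERCC scale.

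Of the members, 97 could be placed in 11 role groups, 6 of them in more than one, 24 carry only clone or predicted names, and 15 fall in no group. Counts at MII are given by group, and the groups are small, were set with earlier results of these data known, and were not tested against each other. They stand beside 47.8% of members and 10.3% of all genes called lower, and 21.5% of all genes called higher. All 5 RNA and ribosome factors, 7 of 11 transcription factors and cofactors and 8 of 12 calcium and kinase genes were lower, while none of 13 immune and surface genes passed in either direction. The other groups were lipid genes with 4 of 12 lower and 1 higher, pumps and channels with 3 of 6, sugar-chain and secretory genes with 4 of 10, meiosis and testis-known genes with 2 of 12 lower and 1 higher, cytoskeletal genes with 5 of 12 lower and 1 higher, ubiquitin ligases and adaptors with 3 of 4, and metabolic enzymes with 3 of 6. Apart from Epsti1, Cd200 and Ly6e, no immune and surface gene had a WT MII mean above 1.31 FPKM.

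**Figure D4:**
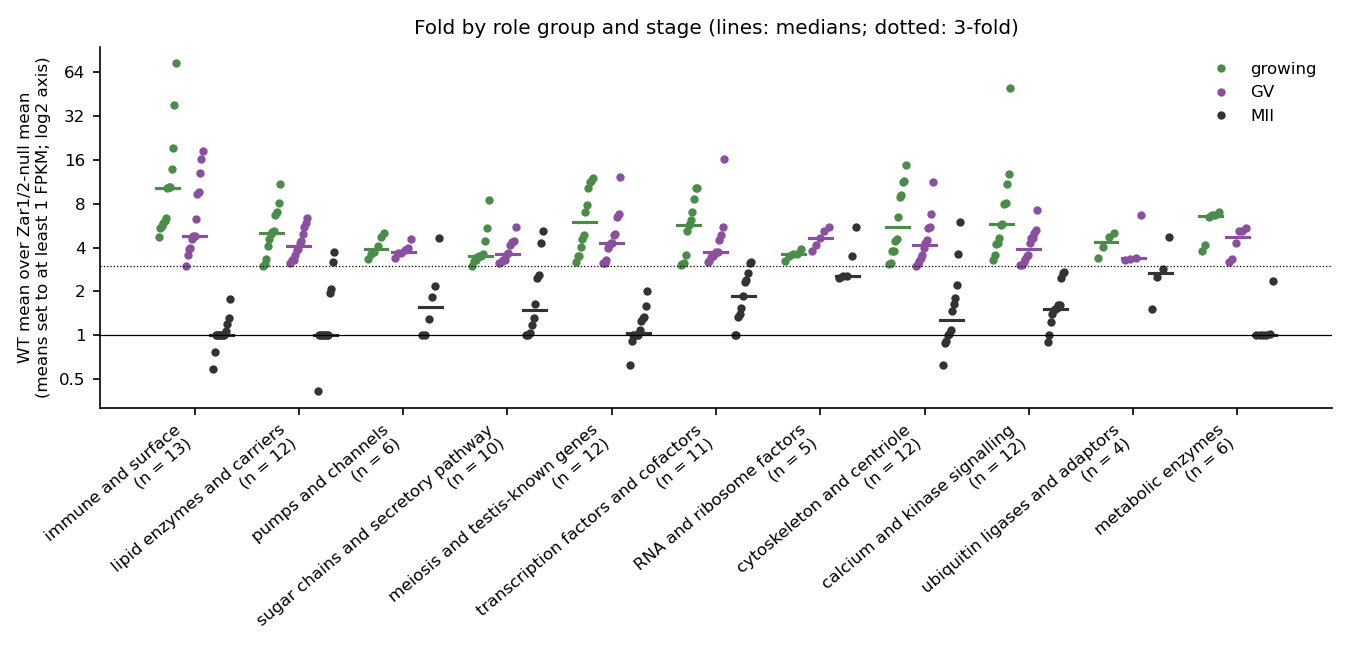
Fold of the WT over the Zar1/2-null mean (y axis, log2, means set to at least 1 FPKM) for members of 11 role groups (x axis) at the growing, GV and MII stages, with lines for medians and dotted lines at 3-fold. The dots lie above 3-fold at growing and GV because they were chosen so, and at MII lie mostly at or above 1, with the RNA and ribosome factors between 2.47 and 5.57 and the ubiquitin ligases and adaptors between 1.52 and 4.75.

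Immune and surface genes had the highest median fold of the 11 role groups at the growing stage, at 10.3. Metabolic enzymes followed at 6.59. At GV the immune and surface median of 4.84 was close to 4.76 for metabolic enzymes and 4.67 for RNA and ribosome factors. Growing and GV values chose the members, and the groups were set with earlier results known, so this order is a description without a test. Beside H2-Aa, Batf3, Epsti1 and Cd200, a surface glycoprotein that restrains myeloid cells, were the best expressed in WT GV oocytes. Cd200 was at 63.0 and 33.7 FPKM in WT and 15.5 and 9.27 in null. H2-Aa and C1qb were not accompanied by the genes they are known to work with: in the list of 17 MHC class II, C1q and macrophage genes, only 4 reached 1 FPKM in any library, namely these 2 with Cd68 and Laptm5. Cd74, H2-Ab1 and H2-Eb1 were at most 0.302 FPKM in any library and C1qa and C1qc were listed at 0 in all 12. The annotation of H2-Aa overlaps that of H2-Ab1 on the other strand, and reads of overlapping genes cannot be told apart in a library without strand.

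RNA and ribosome factors were lower at MII in every case. Nxt1 was at 201 and 201 FPKM in WT growing and 60.6 and 50.2 in null growing libraries. Zc3h6, a CCCH zinc-finger protein, was at 26.6 and 30.1 FPKM in WT and 8.33 and 7.82 in null MII (difference -1.69 ± 0.18 (SE), adjusted p = 2.08e-05), and Krr1, a factor of small-subunit ribosome assembly, at 1.87 and 3.21 and 0.590 and 0.450 (-1.20 ± 0.21 (SE), adjusted p = 0.000935). Krr1 overlaps the neighbouring member Glipr1 on the other strand by 2985 bases, so these 2 cannot be told apart where they overlap.

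Transcription factors and cofactors were mostly lower at MII. Foxn2, a forkhead factor, was at 22.4 and 18.6 FPKM in WT and 8.77 and 8.48 in null MII, and Yaf2, a component of Polycomb complexes, at 19.8 and 16.6 and 6.14 and 5.51. Nfe2l2, which encodes NRF2, the master regulator of antioxidant genes, was at 8.92 and 8.94 FPKM in WT and 1.34 and 0.717 in null at the growing stage, and was lower at MII (difference -1.08 ± 0.19 (SE) on the log2 scale, adjusted p = 0.000963). Of 13 other genes of its pathway tested, 1 was lower and 3 higher at the growing stage, beside 24.4% lower and 10.6% higher over all genes. At MII 1 was lower and 2 were higher, beside 10.3% and 21.5% of all genes. Ccnt1, cyclin T1 of the elongation factor P-TEFb, was at 11.2 and 8.26 FPKM in WT and 2.09 and 3.41 in null GV. At GV, 8 others of that list tested were lower in 3 and higher in 0 cases, beside 40.6% and 2.83% of all genes. At the growing stage these 8 were lower in 2 and higher in 3 cases, beside the same 24.4% and 10.6%.

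Among the lipid and transport genes, Acadm, the medium-chain acyl-CoA dehydrogenase, remained at 15.7 and 12.6 FPKM in WT and 5.01 and 3.83 in null MII oocytes (difference -1.49 ± 0.21 (SE), adjusted p = 0.000215). Ppap2a, a lipid phosphate phosphatase, was at 17.2 and 11.0 and 7.77 and 6.79 and did not pass (-0.84 ± 0.31 (SE), adjusted p = 0.0581). It did pass under some alternatives, among them no ERCC scaling, median scaling and a pseudocount of 0.1 FPKM. Tmem55a, a phosphoinositide phosphatase, was lower (-1.26 ± 0.21 (SE), adjusted p = 0.000617). Over 24 other enzymes of glycerolipids, sphingolipids and fatty acids, 3 were lower and 9 higher at MII, beside 10.3% and 21.5% of all genes, and 10 were lower and 1 higher at GV, where 40.6% of all genes were lower and 2.83% higher. Of the vacuolar ATPase, Atp6v1b2 was the only member, and of 16 other subunits tested 1, Atp6v1d, was lower and 7 were higher at MII, beside 10.3% and 21.5% of all genes. Atp6v1f, for instance, had a mean of 8.38 FPKM in WT and 112 in null MII oocytes. The median MII difference of the 16 other subunits was smaller, at 0.38 on the log2(FPKM + 1) scale, beside 0.060 for all genes. The drug efflux pump Abcb1b was at 6.49 and 6.65 FPKM in WT and 3.34 and 2.68 in null MII (-0.92 ± 0.20 (SE), adjusted p = 0.00378). Its neighbour Abcb4, a phospholipid transporter, was at 7.43 and 8.52 FPKM in WT and 1.96 and 1.40 in null growing oocytes, and 9 other pumps of subfamilies B and C included 2 lower and 1 higher at the growing stage, near the 24.4% and 10.6% of all genes.

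In the secretory and sugar-chain group, Serpinc1, antithrombin, was at 115 and 136 FPKM in WT growing and 38.6 and 32.8 in null growing libraries and was lower at MII (-0.89 ± 0.18 (SE), adjusted p = 0.00299). Prg4, lubricin, and Calr3, a testis calreticulin, did not pass at MII, with differences of -0.61 ± 0.23 (SE) and -0.31 ± 0.28 (SE). Glce stood beside 8 other heparan sulfate enzymes tested, of which 2 were lower at the growing stage, 6 at GV and none at MII, beside 24.4%, 40.6% and 10.3% of all genes. At MII 1 was higher, beside 21.5%.

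Among genes known from meiosis and testis, Dydc2, a DPY30-domain protein, was at 69.7 and 66.8 FPKM in WT GV and 11.8 and 9.15 in null GV libraries, and at MII stood at 0.508 and 0.446 FPKM in WT with no value above 0 in the null libraries (adjusted p = 0.0445, at most 0.165 over the alternatives, several of which end the call). Ccnb1ip1, a ligase needed for crossovers, was at 3.49 and 2.62 FPKM in WT and 1.56 and 1.45 in null MII (-0.68 ± 0.21 (SE), adjusted p = 0.0299), a call lost without WT MII replicate 1 or either null MII library. Pxt1, a testis gene, remained at 18.8 and 22.3 FPKM in WT and 22.5 and 10.2 in null MII, and Tuba3b, an alpha tubulin, at 2.86 and 1.56 and 2.43 and 2.39, with the genotypes overlapping in both and the sign for Tuba3b turning without the ERCC scaling. Of 14 other genes of double-strand breaks and crossovers tested, 6 were lower at the growing stage and 5 at GV with none higher, beside 24.4% and 40.6% of all genes lower. At MII none was lower and 4 were higher, beside 10.3% and 21.5% of all genes.

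Signalling and cytoskeletal genes were split. Deptor, an inhibitor of mTOR, was at 20.3 and 24.6 FPKM in WT and 9.30 and 8.74 in null MII (-1.22 ± 0.23 (SE), adjusted p = 0.00145). The mTOR list had 9 other genes tested, of which 7 were lower at GV, none at the growing stage and 1 at MII, beside 40.6%, 24.4% and 10.3% of all genes. Anxa5, a calcium-dependent phospholipid-binding protein, was at 49.1 and 36.9 FPKM in WT growing and 3.69 and 3.06 in null growing libraries but at 4.68 and 5.45 and 6.53 and 4.67 at MII, where the sign of the difference turned without the ERCC scaling. Stim2, a calcium sensor of the endoplasmic reticulum, was at 1.42 and 1.63 FPKM in WT and 0.373 and 0.309 in null MII (-0.91 ± 0.16 (SE), adjusted p = 0.00106). Its relative Stim1 was higher in null oocytes at the growing stage, with a mean of 1.42 FPKM in WT and 4.66 in null. Stim1 was 1 of 9 non-members tested in a list of calcium entry and store genes. At the growing stage 2 of the 9 were lower and 3 higher, beside 24.4% and 10.6% of all genes. At MII 0 were lower and 2 higher, beside 10.3% and 21.5%. Among the ubiquitin genes Trim36, a ligase, was lower (-1.51 ± 0.12 (SE), adjusted p = 2.1e-06) and Klhl1 was not called (-0.35 ± 0.21 (SE)). Of the metabolic enzymes, Maob, monoamine oxidase B, was at 2.76 and 3.88 FPKM in WT and 1.35 and 1.46 in null MII (-0.83 ± 0.17 (SE), adjusted p = 0.00237), Adhfe1, a mitochondrial transhydrogenase, was lower (-0.81 ± 0.16 (SE), adjusted p = 0.00235), and Dera, the deoxyribose-phosphate aldolase, was at 0.428 and 0.584 and 0.360 and 0.174.

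The annotated promoters of members held fewer CG dinucleotides than those of other genes. Each window was set on 1 annotated start, that of the transcript with the longest coding sequence where there was one. Starts used in oocytes were not checked, and some windows may lie inside the gene. The ratio of observed to expected CG over 300 bases had a median of 0.541 in the 129 members with an mm9 promoter and 0.796 in 6879 others that exceeded 3 FPKM in WT at both stages. It was above 0.6 in 53 members (41.1%) and in 75.3% of the others, and also in 75.3% of the 4724 others whose WT GV level was within the members' 10th to 90th percentile of 4.16 to 54.3 FPKM. The promoters of Mbd3l2 and Dydc2 printed above are of the low kind, and that of Znrf2 of the high kind. Members with a ratio above 0.6 were lower at MII in 30 of 53 cases (56.6%) and the rest in 30 of 76 (39.5%), beside 10.3% of all genes. Their median WT MII levels were 2.57 and 1.58 FPKM. Other genes were not split in this way, so whether the split is particular to members was not tested. The motif TAATTG, read on both strands, was found in 8.53% of member and 5.31% of other promoters, TATAAA in 9.30% and 7.21%, and CCAAT in 33.3% and 40.7%. These are descriptions of letters in a window, without a test.

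**Figure D5:**
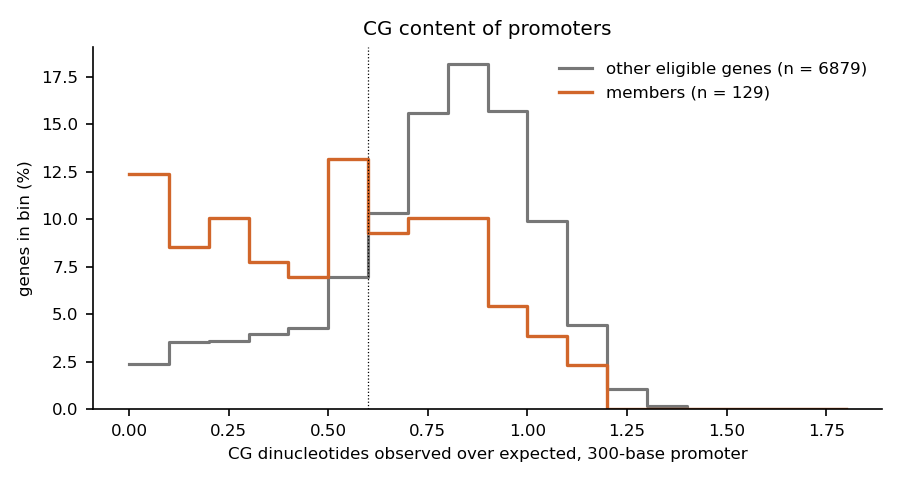
Share of genes (y axis, %) by the ratio of observed to expected CG in a 300-base promoter (x axis), for 129 members and 6879 other genes above 3 FPKM in WT at the growing and GV stages, with a dotted line at 0.6. Members lie further to the left, with a median of 0.541 against 0.796.

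The 3′ UTR showed less of a difference. Of 110 members with an annotated 3′ UTR of at least 100 bases, 46 (41.8%) held one of the TCS-type heptamers on the sense strand, which are ATTATCT as in Mtus2, ATTGTCT as in 5730469M10Rik, TTTATCT as in Lrrfip1 and TTTGTCT as in Klhl9, against 37.0% of 6163 other genes. Per kilobase the members had fewer, at 0.455 against 0.491, and their 3′ UTR was longer, with a median of 1081 bases against 853. The 46 members with a heptamer were lower at MII in 30 cases (65.2%) and the 64 without one in 24 (37.5%), beside 10.3% of all genes. Their median WT MII levels also differed, at 2.78 and 1.32 FPKM. Other genes were not split by heptamer and 3′ UTR length was not matched, so the counts do not link the heptamer to the MII level. The windows of Glce and Agtpbp1 above, which did not pass the test at MII, and those of Mtus2 and Klhl9, which were lower, hold heptamers of the same kind. Cytoplasmic polyadenylation elements were found in the last 100 bases of 28.2% of members and 21.2% of others, and AATAAA in 67.3% and 65.8%. Transcript length, coding length and exon number were close, at medians of 2648 and 2516 bases, 1256 and 1251 bases, and 8 and 9 exons.

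Of the 129 members with a position in mm9, 12 were on chromosome 9, 12 on chromosome 15 and 11 each on chromosomes 5 and 14, with 8 on X and 0 on 19. Chromosome 15 held 9.30% of members and 3.91% of the genes above 3 FPKM in WT at both stages, chromosome 14 held 8.53% and 3.71%, chromosome 9 held 9.30% and 5.81%, and chromosome 5 held 8.53% and 6.85%. There were 5 pairs that were immediate neighbours among the genes of the table. Abcb1b (chr5:8798147-8866314, plus strand) and Abcb4 (chr5:8893717-8959225, plus strand) were 27402 bases apart. Dydc2 (chr14:41862498-41882497, minus strand) and Dydc1 (chr14:41886200-41905482, plus strand) stood head to head 3702 bases apart, and 5730469M10Rik was the next gene on the other side of Dydc2. Dydc1 was far lower than Dydc2 in WT GV libraries, at 4.19 and 4.44 against 69.7 and 66.8 FPKM. Cmtm8, of a family of transmembrane chemokine-like proteins, and Gpd1l, a glycerol-3-phosphate dehydrogenase, were 55188 bases apart on chromosome 9, and both were lower at MII (-1.13 ± 0.21 (SE) and -1.39 ± 0.14 (SE)). The fifth pair, Krr1 and Glipr1, is the one that overlaps.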

How the data were processed

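Each of 12 libraries was made from a pool of oocytes with Smart-seq2. The authors trimmed reads to 50 bases, aligned them to mm9 with TopHat2 2.1.1, estimated expression with Cufflinks 2.2.1 and deposited FPKM values scaled to the ERCC spike-in. Dividing out a factor per library gave back 6-digit FPKM values, which served as the unscaled alternative. From the deposited FPKM, group means (n = 2, floor 1 FPKM) gave the members. Differences came from limma 3.58.1 (R 4.3.3) on log2(FPKM + 1) of the 11502 genes that reached 1 FPKM in some library, with a term per group over all 12 libraries, an intensity trend and Benjamini-Hochberg adjustment over all genes. Fold changes on this scale understate the change of low genes. An exact permutation test of 2 against 2 libraries cannot go below 0.333. The fit was tested on simulated data. Sequences and annotation came from an mm9 genome and transcripts; 129 of 136 members matched by symbol. Promoters were cut with Python 3.11.15 and pandas 2.3.3, and figures drawn with matplotlib 3.10.9. No read counts per gene were used, so the counting error is unknown. The members, role groups, pathway lists and tests were chosen with earlier results of these data known. Named were the members nearest the threshold, those most changed at MII, the highest WT levels at MII, the largest folds, the 4 best expressed of each role group, genomic neighbours and extremes of the null GV to growing ratio. Mei4, Nfe2l2, Ccnt1, Stim2 and members of the result lists outside this rule were named after their values were seen. One gene that the rule names and 1 sequence window are not reported here. Alternatives were the scaling, pseudocount, filter, replicate block, trend and leaving out each library.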

Additional observations from a re-analysis of the deposited data

Results flagged for a closer look

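In 12 members both null MII libraries were above both WT MII libraries, whereas at the growing and GV stages both null libraries were below both WT libraries, a direction that the choice of members fixed. The difference between stages was not tested. On the log2(FPKM + 1) scale the MII difference was 1.40 for Cyp4f39, 1.18 for Tekt4 and 1.09 for 2310043J07Rik, which passed the test at an adjusted p below 0.05 (limma, Benjamini-Hochberg). The other 9 did not pass: Mslnl 0.48, H2-Aa 0.47, Sec14l1 0.46, Ugt2b38 0.29, B3gntl1 0.19, Agtpbp1 0.17, Spn-ps 0.17, Oca2 0.15 and Btn1a1 0.036. Of all genes tested, 43.5% had both null MII libraries above both WT ones. Agtpbp1, with 16.0 and 18.0 FPKM in WT and 20.0 and 18.6 in null, was the best expressed of the 12 at MII.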

How the results depend on the processing

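The size of the group depended on the scaling. Without the ERCC scaling 71 genes met the rule, 64 of them members, under median scaling 44, all members, and with a floor of 0.1 FPKM 388, including all 136. At MII the members more than 3-fold lower numbered 47, 40 and 44 under these 3 settings, and those called higher 6 under each. The median MII difference of the members was -1.11, -0.96 and -1.09, while that of all genes was -0.011, -0.00246 and 0.16. With a mean of at least 5 FPKM required, 42 of 77 members tested were lower, a smaller number because fewer genes were tested. Otherwise 49 to 93 members were lower over the settings that kept all libraries. The share of all genes called was counted for only some of these settings, not for the unfiltered fit or the replicate block. Leaving out 1 library in turn gave 103 to 165 genes by the rule. With 1 MII library left out in turn, the median MII difference of the members ran from -0.60 to -0.49, beside 0.038 to 0.092 for all genes. A lone library left in a group was assumed to vary like the others.

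A replicate block on the shared replicate numbers gave 65 members lower, 64 of them the same, and 3 higher. The 2 numbers share only a name in the labels, and same-numbered MII libraries of the 2 genotypes had deviations correlated at 0.0872, those at GV at -0.12 and those of growing oocytes at 0.163. Among named genes the block changed the call of Ppap2a and no other.

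For 69 named genes 1368 values at MII were computed, of which 1273 kept direction and side of the threshold, 51 moved past it, 31 fell short of it and 13 turned. Without the ERCC scaling Agtpbp1 was at -0.057, Anxa5 at -0.11 and Tuba3b at -0.052, and under median scaling they were at -0.043, -0.091 and -0.042. With 1 MII library left out in turn, Anxa5 ran from -0.095 to 0.31, Cd200 from -0.56 to 0.24, Epsti1 from -0.28 to 0.24, Pxt1 from -0.94 to 0.13, Tnfsf11 from -0.17 to 0.68 and Tuba3b from -0.18 to 0.41. None of these was called. Some calls were less stable. Casq2 kept its call in 8 of 20 alternatives and Dydc2 in 11 of 20. Ccnb1ip1 and Gm17830 each kept theirs in 16 of 20, and 2310043J07Rik in 17 of 19. For each of these genes, the settings that ended the call included leaving out a library. The cause was not tested. With 2 libraries a group and many members under 1 FPKM at MII, small differences there could go undetected.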
